A study of Homo sapiens with 12 samples.

Results

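The SOX4 region is the 1.5 Mb of chromosome 6 that begins at 21 Mb of the hg38 build and holds SOX4. Its members are the H3K27ac peaks that overlap it, 201 of the 573987 peaks in 12 libraries, of which 6 came from CEBPB knockout libraries and 195 from scramble libraries. The region had been picked because it held many peaks in scramble cells and few in knockout cells. The difference between the genotypes within the region, SOX4 included, is therefore given as a description, with no test. The response to dexamethasone was tested, as was the genotype difference at genes elsewhere.

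The cells were RPMI 8226, an established line of multiple myeloma, a cancer of plasma cells. They had lost CEBPB, which encodes the transcription factor C/EBPβ, by knockout, or carried a scramble control, and received 10 µM dexamethasone, a synthetic glucocorticoid, or the vehicle DMSO for 2 h. The groups were knockout with dexamethasone, knockout with DMSO, scramble with dexamethasone and scramble with DMSO, with 3 libraries each. Clone or pool is not stated for the knockout, and separate cultures are not stated for the libraries of any group. A p-value here therefore measures only the spread between these libraries, which may be technical.

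H3K27ac is histone H3 acetylated at lysine 27, a mark of active promoters and enhancers. It was mapped by CUT&RUN, in which a nuclease tethered to an antibody releases the marked chromatin for sequencing. SOX4 is an HMG-box transcription factor of the SOXC group, which acts in lymphocyte and neural development and in TGF-β and Wnt signalling. CASC15 is a long noncoding RNA gene that begins downstream of SOX4 and holds a susceptibility locus for neuroblastoma. Broad clusters of acetylated peaks next to a gene of this kind are usually read as enhancers.

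The promoters of SOX4, CASC15 and LOC105374970, a noncoding RNA gene within the span of CASC15, show how the mark lay on the starts of the genes at the centre of the region. Each sequence runs from 250 bases before to 50 bases after the start, from RefSeq on GRCh38.p14, 5′ to 3′ on the strand of the gene. Capitals mark bases under a peak in all 6 scramble libraries. The SOX4 window is chr6:21593501-21593800 on the plus strand, that of CASC15 is chr6:21666163-21666462 on the plus strand, and that of LOC105374970 is chr6:21828334-21828633 on the minus strand.
SOX4: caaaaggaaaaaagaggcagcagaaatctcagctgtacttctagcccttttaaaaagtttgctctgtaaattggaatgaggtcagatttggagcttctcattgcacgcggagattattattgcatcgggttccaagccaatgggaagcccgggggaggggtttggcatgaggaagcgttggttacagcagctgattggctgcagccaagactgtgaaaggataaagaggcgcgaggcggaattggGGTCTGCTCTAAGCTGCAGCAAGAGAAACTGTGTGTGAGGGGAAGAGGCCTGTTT
CASC15: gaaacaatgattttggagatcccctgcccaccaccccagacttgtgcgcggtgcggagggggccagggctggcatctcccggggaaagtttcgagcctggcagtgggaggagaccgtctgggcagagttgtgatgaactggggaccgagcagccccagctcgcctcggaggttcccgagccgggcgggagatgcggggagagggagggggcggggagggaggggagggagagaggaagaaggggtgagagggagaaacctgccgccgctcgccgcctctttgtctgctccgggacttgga
LOC105374970: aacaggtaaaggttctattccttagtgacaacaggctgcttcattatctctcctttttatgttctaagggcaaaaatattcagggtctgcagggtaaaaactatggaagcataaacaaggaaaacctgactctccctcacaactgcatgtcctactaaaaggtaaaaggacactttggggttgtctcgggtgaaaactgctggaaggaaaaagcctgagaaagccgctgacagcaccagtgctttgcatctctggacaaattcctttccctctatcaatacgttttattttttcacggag

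The peak over SOX4 reached the last 55 bases of its promoter window in all 6 scramble libraries and lay mostly downstream of the start. No base of the CASC15 window lay under a peak in any of the 12 libraries. The LOC105374970 window has no capitals because it was covered in scramble cells with dexamethasone only. C/EBP factors bind motifs such as TTGCNNAA and the glucocorticoid receptor binds GNACANNNTGTNC. Searched on both strands, neither motif occurred in these 3 windows, while 10.4% and 0.392% of 34961 promoter windows of the same length held them. No TATAAA was found in the 3 windows either, against 11.5% of all windows. These counts say only that the letters are not in these windows.

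Peaks were nearly missing from the region in knockout cells. With dexamethasone, the 3 knockout libraries covered 0.345, 0.268 and 0.474 kb of the region with peaks, and with DMSO they covered 0, 0.684 and 0.523 kb. The 3 scramble libraries with dexamethasone covered 37.1, 35.4 and 34.1 kb, and those with DMSO covered 48.0, 28.5 and 36.7 kb. Each scramble library lay above every knockout library. The mean was 0.382 ± 0.237 kb in knockout cells and 36.6 ± 6.4 kb in scramble cells (SD, n = 6 each). In scramble cells peaks took up 1.90 to 3.20% of the region, in 28 to 40 peaks per library, against 0 to 2 peaks per knockout library.

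**Figure D1:**
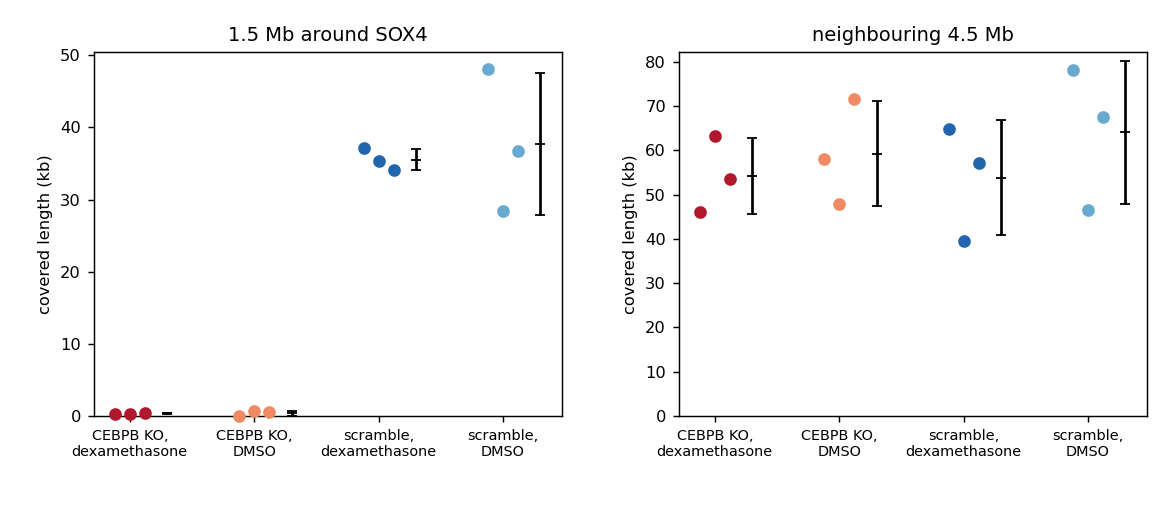
Length covered by H3K27ac peaks, in kb, in the 1.5 Mb around SOX4 (left) and in the 2 Mb before and the 2.5 Mb after it together (right). Points are libraries and bars are the mean ± SD of 3; in the region all knockout libraries sit below 1 kb and all scramble libraries above 28 kb, while beside it the genotypes overlap.

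In the neighbouring parts of the chromosome the genotypes overlapped. In the 2 Mb before the region, knockout libraries covered 23.6 to 41.5 kb and scramble libraries 20.3 to 42.2 kb. In the 2.5 Mb after it the ranges were 18.8 to 31.7 kb in knockout libraries and 19.2 to 35.9 kb in scramble libraries, and over the whole chromosome they were 2.85 to 3.55 Mb and 2.55 to 3.59 Mb. Genome-wide, the libraries held 41164 to 56421 peaks covering 48.0 to 66.4 Mb, with scramble DMSO library 1 the highest. The deposited lists hold no read counts, so sequencing depth is unknown, and reads or DNA copies in the stretches without peaks were not measured. The 10 plasma cell and myeloma markers all carried peaks in all 12 libraries, with summed lengths of 93.9 to 106.4 kb in knockout libraries and 78.3 to 98.6 kb in scramble libraries. The windows of 4 T cell markers summed to 7.03 to 13.1 kb in knockout libraries and 3.68 to 8.47 kb in scramble libraries. Of 4 stromal and epithelial markers, 3 carried peaks in all 12 libraries and COL1A2 was at 0 in all. Their windows summed to 24.7 to 30.8 kb in knockout libraries and 21.9 to 30.7 kb in scramble libraries. For 4 myeloid markers the sums were 12.6 to 19.1 kb in knockout and 14.3 to 19.2 kb in scramble libraries. For 4 mature B cell markers they were 12.6 to 14.5 kb in knockout and 11.6 to 14.6 kb in scramble libraries. The part of other cell types in the results was not tested. The CEBPB window was covered by 4.43 ± 0.41 kb and 4.77 ± 0.47 kb in knockout cells with dexamethasone and DMSO, and by 4.45 ± 0.31 kb and 5.61 ± 0.50 kb in scramble cells with dexamethasone and DMSO (SD, n = 3 each). Peaks there do not check the deletion.

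**Figure D2:**
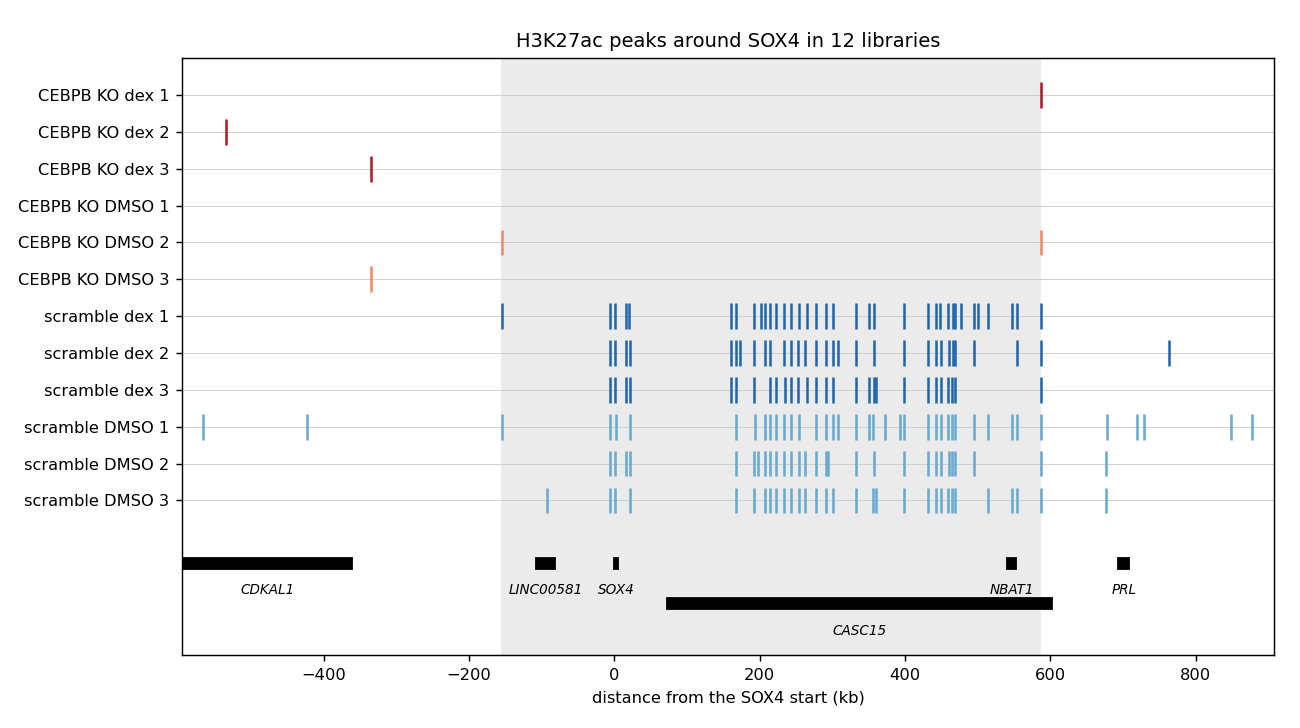
H3K27ac peaks of each library by distance from the SOX4 start in kb, with 1 mark at the centre of each peak (marks are wider than the peaks) and bars for gene spans. The grey band is the stretch of 741.604 kb without a knockout peak; 6 marks stand in the knockout rows and 195 in the scramble rows.

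The 6 knockout peaks were short and had low −log10 q values. One stood at chr6:21059245-21059512 within CDKAL1 (knockout dexamethasone library 2), with a fold enrichment of 2.98 as given by the authors' peak caller. A pair overlapped each other at chr6:21258243-21258765 (knockout DMSO library 3) and chr6:21258258-21258731 (knockout dexamethasone library 3), with enrichments of 2.51 and 3.03. A single peak at chr6:21438409-21438757 (knockout DMSO library 2) had an enrichment of 2.87. The last pair lay near the end of CASC15 at chr6:22180362-22180706 (knockout dexamethasone library 1) and chr6:22180372-22180706 (knockout DMSO library 2), with enrichments of 3.45 and 3.77. Their widths were 268 to 523 bp and their −log10 q values 0.602 to 2.54. In the scramble libraries the strongest peak of the region had a −log10 q of 17.2 to 21.2, but the median was 1.91 to 2.37. The median enrichment of scramble peaks in the region was 3.15 to 3.49. Both medians lay within the range of the knockout peaks. The median width of a peak in the region was 692 to 1118 bp over the scramble libraries, against 943 to 1002 bp for all peaks of those libraries. The outermost peak inside the left end of the region, chr6:21027161-21027831, and the one inside the right end, chr6:22471154-22471466, were each present in scramble DMSO library 1 only. Just outside the left end, chr6:20957790-20958508 held a peak in 2 knockout and 3 scramble libraries. Just outside the right end, chr6:22568476-22570471 held one in 2 knockout and 6 scramble libraries.

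The stretch without any knockout peak ran from chr6:21438758-22180361, 741.604 kb, and held a mean of 35.2 kb of scramble peaks. Its left edge lay 155 kb before the SOX4 start, between CDKAL1 and LINC00581, a noncoding RNA gene. Its right edge lay 586.61 kb after the SOX4 start, within the span of CASC15. Scramble libraries with dexamethasone covered 36.3, 34.5 and 33.8 kb of it and those with DMSO 43.4, 27.6 and 35.7 kb. Taken 1 library at a time, the stretch without peaks was 741.614 to 1967.96 kb long in the 6 knockout libraries. It was longest in knockout DMSO library 1, from chr6:20689259-22657218. Knockout DMSO library 2 carried the peaks at or near both edges, and without it the stretch was 921.596 kb.

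Neither edge fell at a dense part of the scramble signal. Among the peaks inside the stretch that all 6 scramble libraries shared, the first began 148.333 kb after the left edge and the last ended 116.61 kb before the right edge, a span of 476.661 kb. At the right edge itself, scramble cells had a peak at chr6:22180286-22181058 with enrichments of 4.30 to 6.34 in all 6 libraries, the place of 2 of the knockout peaks. The nearest positions with a peak in all 6 knockout libraries were chr6:20688503-20689333 on the left, also covered in 5 scramble libraries, and chr6:22954827-22957846 on the right, also covered in 6. These were 2.27 Mb apart. Of the 22 peaks between them that all 6 scramble libraries shared, 20 had no knockout peak.

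**Figure D3:**
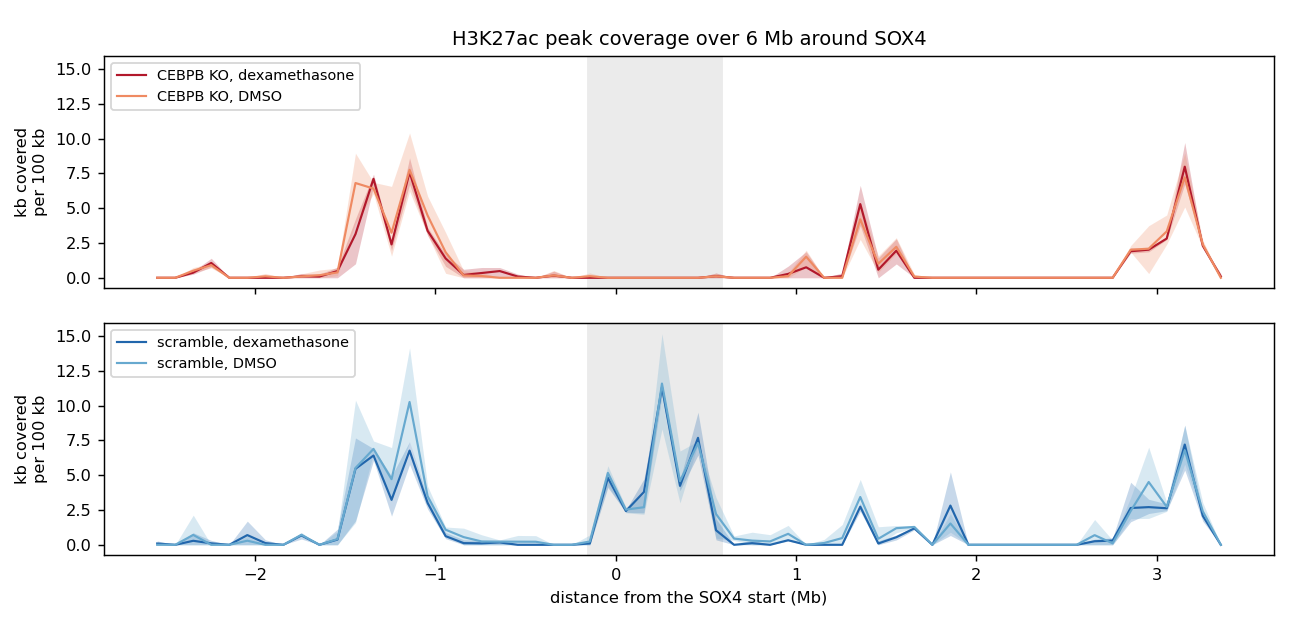
Peak coverage in kb per 100 kb over 6 Mb around SOX4, by distance from the SOX4 start in Mb, for knockout (top) and scramble cells (bottom). Lines are means of 3 libraries, bands run from the lowest to the highest library, and the grey band is the stretch of 741.604 kb; knockout cells are at 0 across it and carry peaks on both sides.

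Merged over the 6 scramble libraries, the region held 53 peaks. Of these, 21 were present in all 6 libraries, 16 in 2 to 5 and 16 in 1. Of the 21 shared peaks, 20 lay in the stretch and had no knockout peak, and the remaining one was that at its right edge. Over all chromosomes, 5.37% of the 29614 peaks shared by the 6 scramble libraries had no knockout peak, a figure that stands beside this count and from which nothing is read, because the region was chosen on it. The shared peaks stood a median of 19.242 kb apart, from 4.191 to 146.435 kb, the widest interval being that between the peaks around SOX4 and those of CASC15. Within the span of CASC15 lay 18 of the 21, 1 lay on SOX4, and the other two flanked SOX4 in no gene span. Exons and introns are not given, because the gene table holds spans only.

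Most of the shared peaks were wider than the genome's median and of middle rank in enrichment. Their merged widths were 717 to 3618 bp with a median of 2075 bp, and 14 of 21 were wider than the median of 1639 bp over all shared scramble peaks of the genome. Ranked by enrichment among all peaks of its library, a shared peak of the region had a median percentile of 49.9, with 10.3 and 80.4 as the lowest and highest. The same percentiles by −log10 q were 45.3, 27.2 and 84.2. The peak over SOX4, chr6:21593652-21597131, covered 3480, 3190 and 2723 bp in scramble libraries with dexamethasone and 3342, 2442 and 3046 bp in those with DMSO. Its enrichments were 2.86, 2.84 and 3.02 with dexamethasone and 2.54, 3.24 and 3.14 with DMSO, and the groups overlapped. The highest −log10 q lay at chr6:22062847-22063751, within CASC15, where the enrichments were 5.01, 5.09 and 5.15 with dexamethasone and 4.74, 6.04 and 5.03 with DMSO. These groups overlapped as well.

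**Figure D4:**
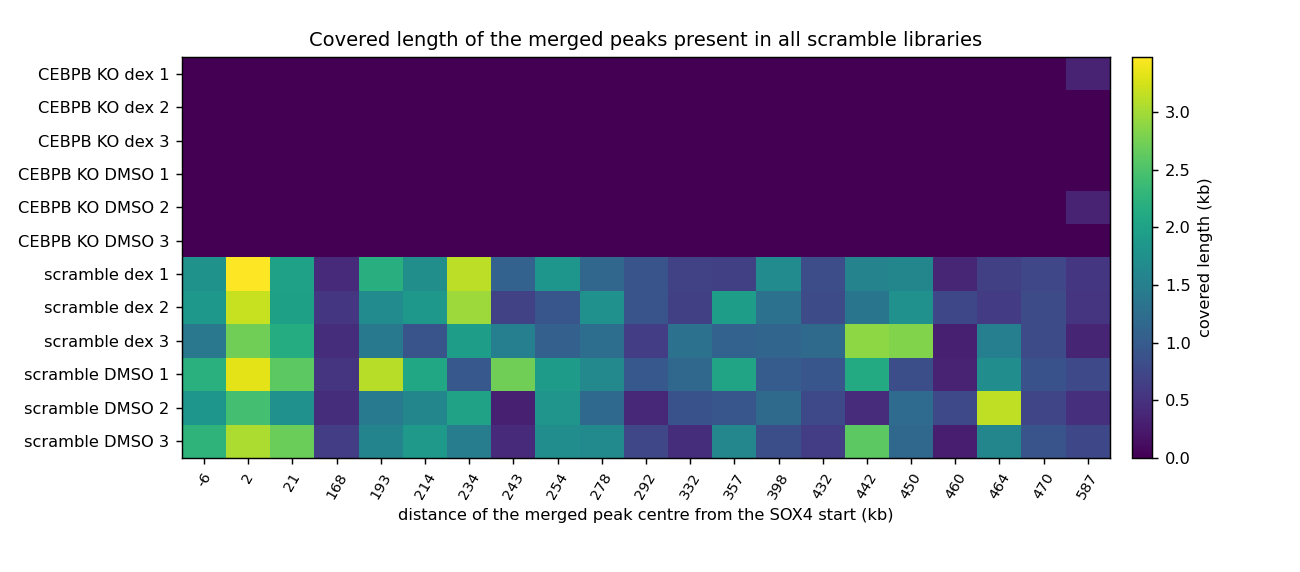
Length in kb covered by each of the 21 merged peaks present in all 6 scramble libraries, with the distance of each peak centre from the SOX4 start in kb below. Rows are libraries; knockout rows are at 0 in all columns except the last, where 2 libraries hold a peak, and the peak over SOX4 (column 2) is among the longest in the scramble rows.

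The genes of the region followed the peaks. Within its span and 25 kb on each side, SOX4 was covered by 0 kb in all 6 knockout libraries, by 7.59, 7.57 and 6.55 kb in scramble libraries with dexamethasone and by 8.15, 6.56 and 8.00 kb in those with DMSO. The knockout libraries lay apart from the scramble libraries, and the scramble groups overlapped. As a share of the window this was 0% in knockout cells, 13.2 ± 1.1% in scramble cells with dexamethasone and 13.8 ± 1.6% in scramble cells with DMSO (SD, n = 3 each). Peaks covered 345 bp and 335 bp of the 529.408 kb span of CASC15 in knockout dexamethasone library 1 and knockout DMSO library 2 and 0 bp in the other knockout libraries. In scramble cells they covered 29213, 27472 and 27565 bp with dexamethasone and 35579, 21521 and 28031 bp with DMSO. NBAT1, a noncoding RNA gene at the same neuroblastoma locus, had peaks over its span in 3 scramble libraries only, scramble dexamethasone library 1 with 482 bp and scramble DMSO libraries 1 and 3 with 1132 and 1542 bp.

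Genes at the borders held other patterns. CDKAL1, which encodes a tRNA-modifying enzyme and reaches into the left end, was covered by 5.89 ± 1.60 kb and 6.61 ± 2.36 kb in knockout cells with dexamethasone and DMSO, and by 4.03 ± 0.73 kb and 6.04 ± 2.37 kb in scramble cells with dexamethasone and DMSO (SD, n = 3 each). All of these groups overlapped. PRL, the gene of the hormone prolactin, had peaks in its window in scramble cells with DMSO only, with 1541, 393 and 316 bp, and its promoter window was at 0 in all 12 libraries. The promoter windows of CASC15, NBAT1, LOC124901483, LOC107986578 and LOC105374971 were at 0 likewise. The windows of LOC105374966, LOC107986578, LOC107986579, LOC124901483 and NGRNP4, with 25 kb on each side, were at 0 in all 12 libraries. The pseudogenes BOLA2P3 and RN7SKP240 had no peak over their spans, and LINC00581 had one of 371 bp in scramble DMSO library 3. The SOX4 promoter window was covered over 149, 80 and 127 bases in scramble cells with dexamethasone and over 55, 142 and 121 bases in those with DMSO, against 0 in all knockout libraries. This pattern, present in 6 scramble libraries and no knockout library, occurred in 0.366% of 34961 promoter windows. Nothing is read from that share, because the region was chosen for this pattern.

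A response to dexamethasone at SOX4 was not detected in scramble cells. Limma, fitted on log2(bp + 500) over the windows of 17155 protein-coding genes, gave a log2 difference of 0.035 ± 0.12 (SE) between dexamethasone and DMSO, with an adjusted p of 0.970. This fit called 4 genes in scramble cells, 0.0233%, and 3 in knockout cells, 0.0175%, and SOX4 was in neither count. The log2 difference of knockout from scramble cells at SOX4 was −4.02 with dexamethasone and −3.99 with DMSO, values that describe the choice of the region and depend on the offset of 500 bp, as the knockout libraries are at 0. For CDKAL1 the log2 difference for dexamethasone in scramble cells was −0.36 ± 0.27 (SE), with a limma adjusted p of 0.813.

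Over the region as a whole, the drug difference was within the spread between libraries. Scramble cells covered 35.5 ± 1.5 kb with dexamethasone and 37.7 ± 9.8 kb with DMSO (SD, n = 3 each), a difference of −2.21 kb with p = 0.8 in an exact two-sided permutation test, whose smallest possible p is 0.1. Without scramble DMSO library 1, the difference turned to 2.94 kb. The parts of the region outside the stretch, where knockout cells also had peaks, covered 0.362 ± 0.104 kb with dexamethasone and 0.402 ± 0.358 kb with DMSO in knockout cells, and 0.672 ± 0.279 kb and 2.19 ± 2.16 kb in scramble cells with dexamethasone and DMSO (SD, n = 3 each). With permutation within genotype, the exact two-sided p over 12 libraries was 0.2 for a mean difference of −0.779 kb, and the smallest possible was 0.005. Leaving out knockout DMSO library 1, the one with no peak in the region, gave a difference of −0.879 kb with an exact permutation p of 0.02. Leaving out scramble DMSO library 1 gave −0.154 kb with an exact permutation p of 0.35.

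Cut into tiles of 10 kb, the region had 30 tiles that were tested among 58892. One was called for dexamethasone in scramble cells, chr6:21750001-21760000, where the genome-wide share of called tiles was 0.513%. At an unadjusted p under 0.05 there were 5 tiles, where the genome-wide share was 7.3%. Among them were the called tile and chr6:22270001-22280000, each covered in 3 scramble libraries of 1 treatment only. Both had to differ once they met the filter of 3 covered libraries, so no excess is read from this count. The called tile holds the peak chr6:21754598-21755170, which overlaps LOC124901274, a noncoding RNA gene inside the span of CASC15. It covered 565, 271 and 430 bp in scramble cells with dexamethasone and 0 bp in all 3 scramble libraries with DMSO and in all 6 knockout libraries. Its enrichments were 3.72, 3.15 and 5.06. The tile met the filter of 3 covered libraries only through the scramble libraries with dexamethasone, so that a tested value had to differ, and its call is no support for a response. The log2 difference was 0.96 ± 0.12 (SE), with a limma adjusted p of 0.00726, and the difference between the drug responses of knockout and scramble cells had a limma adjusted p of 0.0903. In that fit 4 of 8 residual degrees of freedom came from knockout libraries at 0, which makes the spread too small here. Fitted on the scramble libraries alone, no tile of the region was called. The lowest limma adjusted p among its tiles was 0.183, and 5 had an unadjusted p under 0.05. Without scramble dexamethasone library 1, 2 or 3, the called tile no longer met the filter and was not tested. The lowest limma adjusted p among the remaining tiles of the region was then 0.120, 0.124 and 0.122.

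A merged peak present in all 3 dexamethasone and no DMSO scramble library, as this one was, made up 0.443% of 83669 merged scramble peaks. The opposite pattern made up 0.735%, and the region held 1 such peak too. It lay at chr6:22270972-22271606, before PRL, with 0 bp in scramble cells with dexamethasone and 635, 393 and 316 bp in those with DMSO. Its tile was likewise covered in no other library. It is among the tiles counted above at an unadjusted p under 0.05, which is no support for a response.

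The peak across the start of LOC105374970, chr6:21825909-21829055, differed between the treatments in where it ended. It covered all 300 bases of the promoter window printed above in the 3 scramble libraries with dexamethasone and 0 bases in the 3 with DMSO and in the 6 knockout libraries. A second listed start of the same gene, whose window overlaps the first, gave the same values. Of 34961 promoter windows, 18, or 0.0515%, were covered in all 3 dexamethasone and no DMSO scramble library, and these windows account for 2 of them. Both hold the end of the same peak, and the 34961 include windows without any peak. The opposite pattern was not counted for promoter windows, so no response is read from this share. Over its whole length the peak covered 3138, 2968 and 1944 bp with dexamethasone and 952, 2004 and 1479 bp with DMSO. These groups overlapped, and the tile that holds it had a log2 difference of 0.78 ± 0.25 (SE) with a limma adjusted p of 0.423.

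Among the 21 shared peaks, the mean length in scramble cells was higher with dexamethasone in 9 and lower in 12, and 45.5% of the shared peaks of the genome were higher. The groups did not overlap at 1 higher peak, against 4.11% of shared peaks over the genome, and at 1 lower peak, against 5.45%. The higher one, chr6:22041825-22045442, covered 1592, 1762 and 2820 bp with dexamethasone and 840, 1211 and 1170 bp with DMSO. The lower one, chr6:22056488-22059666, covered 653, 625 and 1503 bp with dexamethasone and 1700, 3142 and 1600 bp with DMSO. Both lie within CASC15, and their tiles had limma adjusted p-values of 0.383 and 0.647.

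Of the other SOX genes, SOX13 was the one that passed the test between genotypes, and none passed for the drug. The SOX family list held 19 genes, of which 11 had peaks in enough libraries to be tested, and SOX1, SOX2, SOX3, SOX9, SOX14, SOX17 and SOX21 were at 0 in all libraries. For dexamethasone, 0 of 11 passed in limma in scramble cells and 0 of 11 in knockout cells, also at an unadjusted p under 0.05. Of all genes, 0.0233% and 0.0175% passed, and 7.67% and 6.36% had an unadjusted p under 0.05. The median log2 differences were 0.0048 and 0.098, against 0.031 and 0.021 over all genes tested. The smallest p-values in scramble cells belonged to SOX8, SOX12 and SOX30, with limma adjusted p-values of 0.704, 0.825 and 0.833. Between genotypes, 7.62% of all genes were called with dexamethasone and 7.32% with DMSO. Of the other 10 SOX genes tested, 0 were called by limma with dexamethasone. With DMSO, SOX13 was called, lower in knockout cells. SOX4 is left out of this count, because the region was chosen for its lack of knockout peaks. SOX13, a SOXD factor, with DMSO was covered by 2.75 ± 1.82 kb in knockout cells, against 8.09 ± 1.54 kb in scramble cells (SD, n = 3 each), with a limma adjusted p of 0.0201. SOX18, a SOXF factor of vessel development, held the highest share of its window of the SOX genes, 15.02 to 15.7% as group means. SOX8, a SOXE factor, was at 12.0 to 14.5%, near the 13.2 and 13.8% of SOX4 in scramble cells.

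Genes tied to SOX4 in TGF-β and Wnt signalling or as its targets were listed as 20 genes, all tested. None of the 20 passed for dexamethasone in limma in either genotype, where 0.0175% of all genes passed in knockout and 0.0233% in scramble cells. The median log2 differences were 0.13 in knockout and 0.055 in scramble cells, against 0.021 and 0.031 over all genes tested. At an unadjusted p under 0.05 there were 3 in knockout cells, where 6.36% of all genes had one, and 1 in scramble cells, where 7.67% had. Between genotypes with dexamethasone, 1 was higher and 1 lower in knockout cells, where 4.25% and 3.38% of all genes were. With DMSO, 0 were higher and 3 lower, where 3.78% and 3.54% of all genes were. TGFBR2, a receptor of TGF-β, was lower in both, with 6.45 ± 1.39 kb in knockout and 9.84 ± 1.97 kb in scramble cells with dexamethasone, and 4.38 ± 0.58 kb in knockout and 10.8 ± 1.4 kb in scramble cells with DMSO (SD, n = 3 each). Its limma adjusted p-values were 0.0335 with dexamethasone and 0.000371 with DMSO. SMAD4, which carries TGF-β signals to the nucleus, was higher in knockout cells with dexamethasone, at 6.42 ± 0.42 kb against 3.49 ± 1.21 kb in scramble cells (SD, n = 3 each), with a limma adjusted p of 0.0448. TCF7L2, a Wnt effector, and SEMA3A, a guidance factor, were lower in knockout cells with DMSO, with limma adjusted p-values of 0.0406 and 0.0482. The median log2 difference of the list was −0.063 with dexamethasone and −0.093 with DMSO, against −0.0052 and 0.0083 over all genes tested.

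Of the 20 protein-coding genes from 19 to 25 Mb of chromosome 6, 17 were tested. Leaving out SOX4, around which the region was chosen, none of the other 16 was called between genotypes under either treatment by limma. Of all genes, 7.62% were called with dexamethasone and 7.32% with DMSO, so nothing is read from so small a list. None of the 17 was called for dexamethasone by limma, where 0.0233% of all genes were in scramble and 0.0175% in knockout cells. At an unadjusted p under 0.05 for dexamethasone there were 3 in scramble cells, where 7.67% of all genes had one, and 0 in knockout cells, where 6.36% had. The 3 were E2F3, GMNN, the gene of the replication inhibitor geminin, and PRL, which entered the fit only through its peaks in scramble cells with DMSO. E2F3, a cell cycle transcription factor upstream of the region, had group means of 7.60 kb with dexamethasone and 7.76 kb with DMSO in knockout cells, against 6.77 kb and 10.3 kb in scramble cells.

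Genes were ranked by the likeness of their covered length to that of SOX4 over the 12 libraries. Those whose windows touch 19 to 25 Mb of chromosome 6 were left out beforehand. By Pearson correlation of normalised log2 values the 5 highest were DOCK5 (0.9997), PIK3R5 (0.9995), GALNT17 (0.9990), AUTS2 (0.9988) and ANKRD30A (0.9986). All 5 were at 0 in all 6 knockout libraries, so these values restate the genotype split that all 12 points share and are given as a description. In scramble cells AUTS2 was covered by 64.1 ± 5.4 kb with dexamethasone and 63.9 ± 18.8 kb with DMSO, and DOCK5 by 13.5 ± 0.6 kb and 13.1 ± 2.1 kb (SD, n = 3 each). AUTS2 and GALNT17 adjoin each other on chromosome 7.

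Set beside all 79401 gaps between merged knockout peaks, the stretch ranked 4 by scramble coverage. The gaps above it were chr7:69494386-71752229 with 102.4 kb, which holds AUTS2 and GALNT17, chr16:6777804-7926598 with 42.2 kb and chr4:186261344-186749740 with 35.8 kb. Among the 5236 gaps of at least 100 kb, the median coverage was 0.0758 kb. At least 10 peaks shared by all 6 scramble libraries stood in 14 knockout gaps, and at least 20 kb of scramble coverage in 12. In the other direction, 83636 gaps between scramble peaks included 5683 of at least 100 kb. One of these gaps held at least 10 shared knockout peaks and 0 held at least 20 kb of knockout coverage, the highest being 17.3 kb. Long stretches filled in scramble cells and empty in knockout cells were thus more numerous than the opposite kind, a count without a test.

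**Figure D5:**
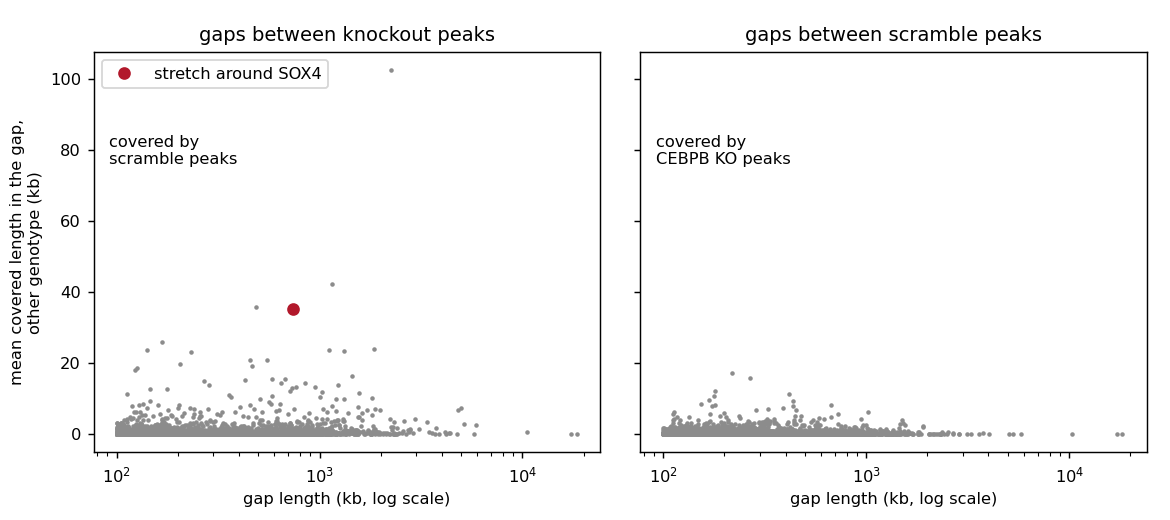
Mean length in kb covered by scramble peaks in each gap of at least 100 kb between knockout peaks (left), and by knockout peaks in each such gap between scramble peaks (right), against gap length on a log axis. The stretch around SOX4 (red) holds 35.2 kb of scramble peaks, and no gap between scramble peaks holds more than 17.3 kb of knockout peaks.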

How the data were processed

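H3K27ac CUT&RUN was run on 100000 cells per assay, per the labels' protocols. Reads were aligned with Bowtie2 2.4.2 to hg38 and peaks called with MACS3 3.0, per the submitters' processing notes. The control library and the thresholds of the peak calling are not given in the sources used here. The authors deposited 1 list of broad peaks per library. Deposited peak starts and ends are 0-based positions, printed here 1-based. The deposited score equals 10 times −log10 q in 100% of peaks, the deposited signal is a ratio (fold enrichment over background), and −log10 p and −log10 q are given beside it.

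Only peaks of the autosomes 1 to 22 and of X entered. Base pairs covered by peaks were summed per library over the region, over gene spans with 25 kb on each side (RefSeq gene table, GRCh38.p14, coordinates of the same chromosomes as hg38), and over tiles of 10 kb. Features covered in at least 3 libraries entered limma 3.58.1 in R 4.3.3, with its trend and robust options, on quantile-normalised log2(bp + 500), over 12 libraries with 8 residual degrees of freedom, with Benjamini-Hochberg adjustment over all features and a threshold of 0.05. Single values were compared by exact permutation tests. Peaks of several libraries were merged where they overlapped by at least 1 base. Other steps used Matplotlib 3.10.9, SciPy 1.17.1, pandas 2.3.3, NumPy 2.4.6 and Python 3.11.15. Data over 17155 genes were simulated for dexamethasone in scramble cells, as normal values on the log2 scale around each gene's mean. A planted change of log2 1 was recovered in 57% of genes and one of log2 2 in 91%, and 7 calls were false. Libraries at 0 were not simulated, so these shares do not describe recovery at windows such as that of SOX4.

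The region and the lists of genes were chosen with earlier results of these data known. Genes named are those of the region, CEBPB, those at the edges of the stretch, SOX genes that passed or had the 3 smallest p-values, and called neighbours. Also named are the 5 most correlated with SOX4 among genes whose windows do not touch 19 to 25 Mb of chromosome 6. Genes named beyond these (called genes of the SOX4-linked list, SOX18, SOX8, E2F3 and GMNN) were chosen after their values were seen. Alternatives were other offsets, filters, scalings, windows, tiles and peak thresholds, the replicate number as a block, and each library left out.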

Additional observations from a re-analysis of the deposited data

How the results depend on the processing

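The difference at the SOX4 window stayed short of the threshold under all 24 alternatives run. Its sign turned without normalization (−0.058), with the same number of peaks in every library (−0.19) and without scramble dexamethasone library 2 or scramble DMSO library 2 (range with a library left out, −0.035 to 0.088). The count of called tiles in the region, 1, became 2 with an offset of 100 bp, without normalization, with scaling to the library total, with limma without trend and robust options, with 5 kb tiles and with the same number of peaks. The added tile began at chr6:22270001 in each of these. Its peak was present in scramble libraries with DMSO only, so the added call is no support for a response. The count became 0 with a filter of 6 libraries, only scramble libraries, 25 kb tiles or the replicate number as a block. With a library left out it was 0 to 1. The called tile was not tested with a filter of 6 libraries or without a scramble dexamethasone library, because it no longer met the filter. With peaks of −log10 q of at least 2, the 1 called tile was a different one, chr6:22030001-22040000. Its peak reached that threshold only in scramble libraries with dexamethasone, so this call is no support either. Over the genome, 195 tiles were called higher and 107 lower, against 25 and 14 with only the scramble libraries and 76 and 30 with the block. Gene calls were 4 higher and 0 lower, against 45 and 9 with peaks of −log10 q of at least 2. The regional difference for dexamethasone in scramble cells, −2.21 kb, was 2.60 kb with peaks of −log10 q of at least 2, 0.600 kb with the same number of peaks, 2.51 kb when scaled to the library total and −6.84 to 2.94 kb with a library left out. The difference outside the stretch was −1.11 to −0.154 kb with a library left out, and passed the threshold without knockout DMSO library 1 (−0.879 kb, exact permutation p = 0.02), while without scramble DMSO library 1 it was −0.154 kb (exact permutation p = 0.35). The regional difference of knockout from scramble cells, −36.3 kb, was −22.6 kb with peaks of −log10 q of at least 2 and −37.9 to −34.0 kb with a library left out. The stretch without knockout peaks, 741.604 kb, was 1345 kb long with peaks of −log10 q of at least 2 and 741.604 to 921.596 kb with a library left out. The causes were not tested.

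The library titles hold no replicate number, and numbers were given in their order. Deviations of same-numbered libraries correlated at −0.079 to 0.095 over 18 pairs, and those of other numbers at −0.099 to 0.113 over 36. These values show no pairing by number, but cannot show whether cultures or runs were shared between groups. With the replicate block the SOX4 difference was 0.035. No tile of the region was called, and the lowest adjusted p among its tiles was 0.0524 in limma. With the block, the exact permutation p-values were 0.75 for the regional difference of −2.21 kb and 0.1875 for that outside the stretch of −0.779 kb. Without counts, depth is unknown, and a weak peak just under the caller's threshold cannot be told from none.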
